A study of Mus musculus with 11 samples.

Results

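Genes for mitosis, the kinetochore and cytokinesis were followed in mouse livers in which an active form of YAP was switched on for 3 or 7 days. The group was fixed as a list of 54 gene symbols, and the members are the rows of the deposited expression table that carry 1 of these symbols. There were 53 such rows among the 20893 genes of the table. Kifc1 was not analysed here. All 53 members reached 0.5 eRPKM in at least 3 livers, the level required for testing, 2 of them (Kif14 and Espl1) only because of the 7-day livers. eRPKM is a density of exon reads, scaled to exon length and to the size of the library, so it compares levels between genes as well as between livers.

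In mitosis the duplicated chromosomes are condensed, caught by spindle microtubules at their kinetochores, held back by a checkpoint until all are attached, and then pulled apart before cytokinesis cuts the cell. Most of the genes involved are silent in resting cells and are transcribed in G2 and M phase. The hepatocytes of the adult liver are largely quiescent and return to the cycle after tissue loss. YAP, the transcriptional coactivator at the end of the Hippo pathway, acts through the DNA-binding TEAD proteins and drives growth of the liver when it is active.

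The mice were C57BL/6 and carried ROSA26-rtTA-IRES-EGFP, a doxycycline-dependent transactivator that is switched on by Cre. The 4 control livers came from mice labelled WT, which ate doxycycline food for 7 days but had no tetYAP transgene. The 4 livers at 3 days and the 3 livers at 7 days came from tetYAP mice, which express YAP S127A, a form that escapes an inhibitory phosphorylation, and which were given doxycycline for 3 or 7 days. The study names an Alb-CRE allele in this cross, so the albumin promoter, active in hepatocytes, decides where the transactivator is made, while total RNA was taken from homogenized whole liver. Ages are not given for these mice. Each library is 1 liver, and p-values measure the spread between livers. In bulk RNA a change in the number of dividing cells and a change in RNA per cell cannot be told apart.

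The libraries held between 1251396 and 5941357 reads on genes, and the 3 libraries at 7 days (5312486 to 5941357) were deeper than all others but control liver 2. Control livers 1 and 2 and 7-day liver 2 stood apart, with 17392 to 19280 genes listed above 0 against 14630 to 15809 in the other 8. Cyr61, a direct YAP target, stood at 5.76 to 14.3 eRPKM in the controls, at 26.8, 48.3, 53.4 and 27.5 in 3-day livers 1 to 4 and at 90.5 to 91.3 at 7 days. The Yap1 row lay between 13.9 and 21.1 eRPKM over the 11 livers without a separation of the groups, and whether reads of the transgene fall in that row is not given in the sources used here. Xist and Ddx3y, which mark female and male mice, divided the controls and the 3-day livers into 2 females and 2 males each, and all 3 livers at 7 days were female.

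After 7 days of YAP, the mitotic programme was high in every liver. Of the 53 members, 50 rose (limma on log2 values, Benjamini-Hochberg adjusted p under 0.01 and a change past 0.5 on the log2 scale), where 18% of the 14244 tested genes rose by the same rule and 5.77% fell. Kif14 and Espl1 are among the 50, and their 7-day levels were in part a condition of being tested. The median log2 fold change was 2.63 over the members and 0.26 over all tested genes. In 52 members every 7-day liver lay above every control, against 36.7% of all genes. The 3 members that did not pass were Cenpm, Bub3 and Pttg1, and Pttg1 was the only member with a lower mean than in the controls. The count at 7 days kept its direction but not its size under the strictest settings. With log2 depth as a covariate, 22 members rose in place of 50, beside 1099 of all 14244 genes tested. Leaving out control livers 1 and 2 and 7-day liver 2 kept 2, 4 and 2 livers. Then 5 members rose, beside 941 of 13542 genes. In both settings 52 of 53 members stayed higher than the controls, with median log2 fold changes of 2.41 and 2.47. Among female livers only, 38 members rose, beside 1552 of 13844 genes.

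After 3 days the picture depended on the liver. None of the 53 members passed the test, where 0.0421% of all genes, 6 in number, did. Yet 52 of them had a higher mean than the controls, 35 had an unadjusted limma p under 0.05 and the median log2 fold change was 1.05, against 0.02 over all genes. The lowest limma adjusted p was 0.0556, for Ttk. Without 3-day liver 1 the count of members that passed was 2, Aurkb and Mad2l1, beside 53 of 14187 genes called higher. In 12 members all 4 livers at 3 days lay above all controls, against 3.38% of all genes, and in none did all lie below (2.25%). These 12 were the members in which liver 1 exceeded every control. For these the exact two-sided permutation test gave 0.0286, the smallest p that 4 against 4 livers allow. Any gene whose groups separate fully gets this p, so it adds no support to the count.

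**Figure D1:**
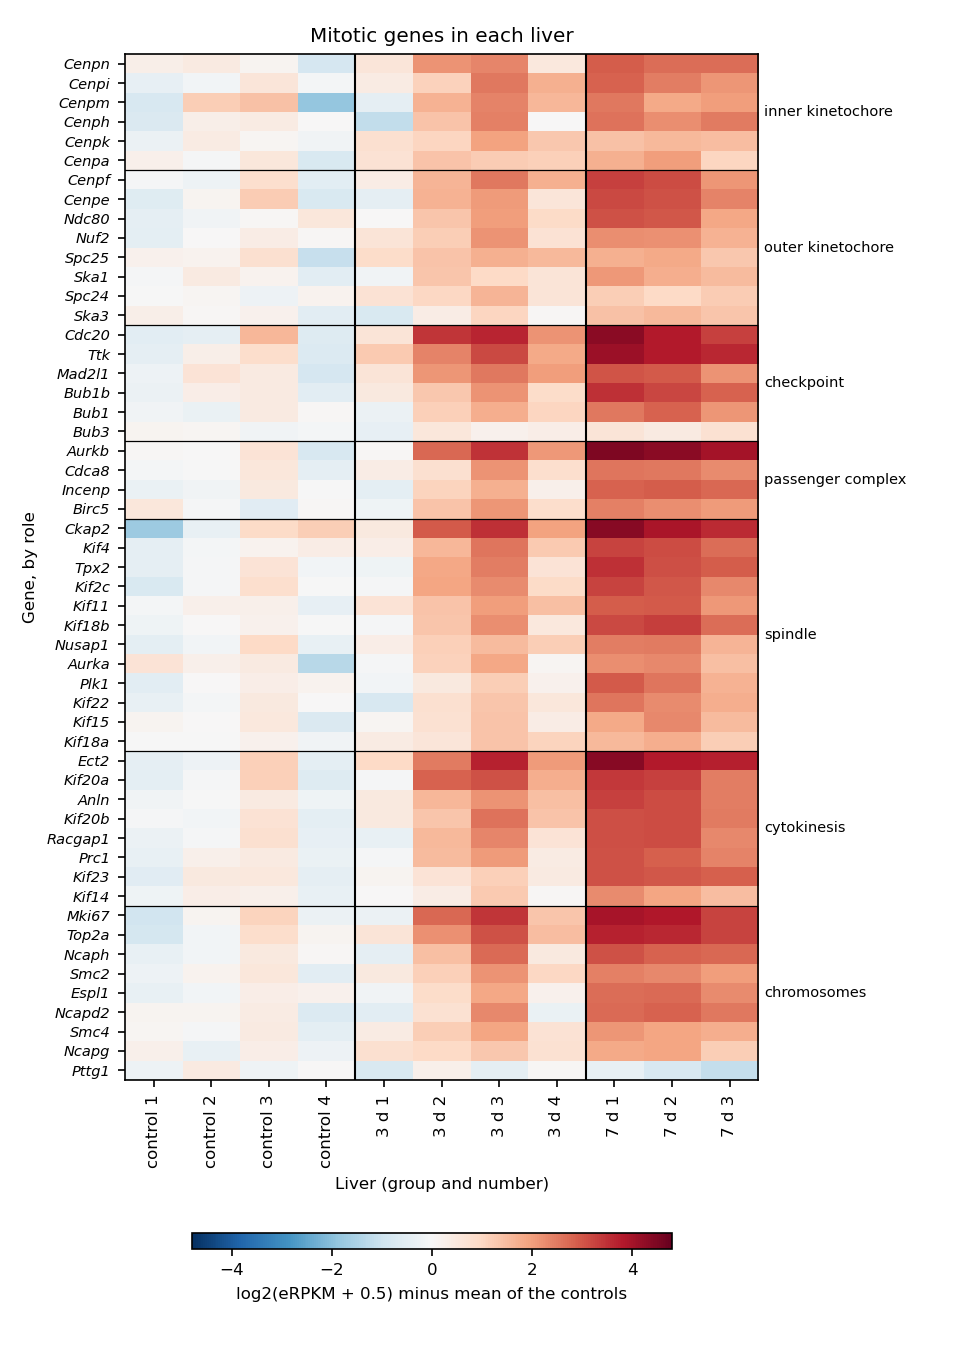
Colour map of log2(eRPKM + 0.5) minus the mean of the 4 controls for the 53 mitotic genes (rows, grouped by role) in the 11 livers (columns, numbered within control, 3 d and 7 d). Red is higher and blue lower than the control mean: the 7 d columns are red in all rows but Pttg1, and within 3 d liver 1 is pale and liver 3 is the most intense in 49 of 53 rows.

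The 4 livers at 3 days formed a graded series. Taking each member as log2(eRPKM + 0.5) minus the control mean, the median over the 53 members was 0.11 in liver 1, 1.33 in liver 2, 2.14 in liver 3 and 0.86 in liver 4. Single controls stood at -0.27, 0.01, 0.45 and -0.37, and the 7-day livers at 2.85, 2.81 and 2.16. Liver 1 was thus inside the range of the controls, and liver 3 was just below the lowest 7-day liver.

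Counted by gene, 12 members in liver 1, 52 in liver 2, 52 in liver 3 and 39 in liver 4 exceeded every control, against 22.1%, 25.3%, 27.1% and 28.5% of all genes. The member that did not do so in livers 2 and 3 was Pttg1. Liver 3 was the highest of the 4 livers for 49 members (34.8% of all genes) and liver 1 the lowest for 50 (37.8%). The order 1, 4, 2, 3 was followed by 37 members (14.7%). These livers and this order were read from the medians of the same members, so the excess over all genes is in part set by that choice. The 4 members with their highest 3-day value in liver 2 were Cenpa, Ska1, Bub3 and Pttg1. The highest 3-day liver exceeded the lowest by a median of 6.00 times, from 1.53 for Ncapg to 23.9 for Aurkb, among the 52 members with no 3-day liver at 0. The value for Aurkb rests on 2 reads in liver 1, under the floor of 3, while Mki67, with 66 reads in liver 1, differed by 15.6 times.

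Summed over the members, the share of reads told the same order. In RPM, reads scaled to a common library size, it was 447 in 3-day liver 1 (exact Poisson 95% interval 422 to 473), 1279 in liver 2 (1242 to 1316), 2090 in liver 3 (2044 to 2137) and 839 in liver 4 (809 to 869). The controls lay at 292 to 573, and the 7-day livers at 3219, 2932 and 2112. These intervals cover counting error only. They do not overlap between any 2 of the 3-day livers.

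The spread among livers was larger at 3 days than in either other group for most of these genes. The median SD of log2(eRPKM + 0.5) over the members was 0.46 in the controls, 0.88 at 3 days and 0.35 at 7 days, while over all tested genes it was 0.32, 0.34 and 0.18. The 3-day SD was the largest of the 3 groups for 45 of 53 members (84.9%) and for 46.8% of all genes. The added 0.5 narrows the SD of low values, and many members were low in the controls. Cenpi spanned 0.0625 to 0.607 eRPKM in the controls (SD 0.42) and 0.457 to 3.77 at 3 days (SD 0.92). Mki67, at 1.33 eRPKM or more in every liver, had SDs of 0.83, 1.64 and 0.39. How far this narrowing sets the difference from the controls was not tested.

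Other measures also differed between the 3-day livers, not all in the same order. Cyr61 followed the order 1, 4, 2, 3 (26.8, 27.5, 48.3 and 53.4 eRPKM), as did Ctgf, another YAP target (15.3, 15.5, 31.3 and 34.2). In both genes livers 1 and 4 were close together. Livers 1 and 4, the lower pair, are those whose label ends in MF, a suffix with no stated meaning; 7-day liver 2 bears it too, with a median of 2.81 beside 2.85 and 2.16. With the suffix as a covariate the median log2 fold change at 3 days was 1.42 and still no member passed. Liver 1 was also the shallowest 3-day library, with 2660233 reads against 3626710 to 3681416. Livers 1 and 2 were male and livers 3 and 4 female. The part of YAP activity, the suffix, depth and sex in the spread was not tested.

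**Figure D2:**
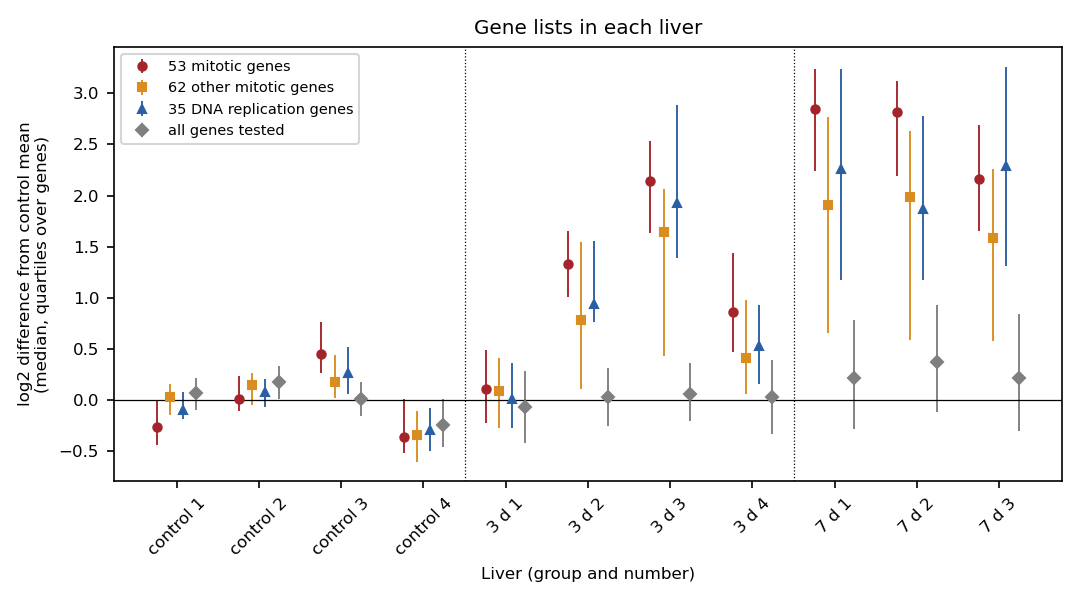
Median log2 difference from the control mean in each liver (points) with the quartiles over genes (lines), for the 53 mitotic genes, 62 other mitotic genes, 35 DNA replication genes and all 14244 tested genes. All 3 proliferation lists climb from 3 d liver 1 through livers 4 and 2 to liver 3, while the median of all genes stays between -0.07 and 0.06 at 3 days.

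The promoters of some members are shown because the genes moved together from liver to liver. Genes of late G2 and mitosis are classically controlled through a CHR element (TTTGAA), bound by complexes with MuvB, and through CCAAT boxes, bound by NF-Y. RefSeq promoters (GRCm38.p6) were found for 46 of the 53 members, and both strands of the 100 bases before any listed start were searched. TTTGAA occurred in 12 of the 46 (26.1%) and in 4.23% of the 10840 tested genes with a promoter, and CCAAT in 26 (56.5%) against 25.6%. Both were found in 8 members (17.4%) and in 1.12% of the tested genes, and no CHR match overlapped a CCAAT match in a member. TTTGGCGC or TTTCCCGC, forms of the E2F site, were in 4 members (8.70%) against 1.16%. GGAATG, the core TEAD motif, was found in 2 members (4.35%) against 4.64%, and in all 250 bases before the start in 3 members (6.52%) against 13.1%. Neither TTTGAA nor CCAAT lay in the last 100 bases of 16 members, 14 of which rose at 7 days, as did 29 of the 30 with a match. These matches are letters in a window, not evidence of binding. The lines below give the last 100 bases before the start, 5′ to 3′ on the strand of the gene, with matches to the CHR element or the CCAAT box on either strand in capitals, for 6 members with both, 2 with CCAAT alone that rose between 3 and 7 days, and 2 with neither that did not pass at 7 days.
Cdc20 (chr4:118437344-118437443, minus strand): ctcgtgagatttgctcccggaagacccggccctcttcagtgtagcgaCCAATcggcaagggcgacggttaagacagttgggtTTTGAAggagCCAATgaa
Kif11 (chr19:37376282-37376381, plus strand): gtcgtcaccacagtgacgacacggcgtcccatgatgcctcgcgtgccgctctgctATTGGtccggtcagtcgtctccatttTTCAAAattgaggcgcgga
Kif22 (chr7:127042421-127042520, minus strand): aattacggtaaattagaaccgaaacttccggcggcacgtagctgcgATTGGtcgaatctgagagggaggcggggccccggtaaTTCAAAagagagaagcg
Espl1 (chr15:102296193-102296292, plus strand): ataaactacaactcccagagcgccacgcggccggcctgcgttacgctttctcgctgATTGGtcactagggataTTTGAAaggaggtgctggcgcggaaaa
Top2a (chr11:99024190-99024289, minus strand): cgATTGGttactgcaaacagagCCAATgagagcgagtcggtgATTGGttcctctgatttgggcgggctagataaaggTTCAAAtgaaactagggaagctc
Cenpn (chr8:116921640-116921739, plus strand): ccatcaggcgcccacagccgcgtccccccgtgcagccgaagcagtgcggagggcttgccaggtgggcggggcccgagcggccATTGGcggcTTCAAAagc
Plk1 (chr7:122159335-122159434, plus strand): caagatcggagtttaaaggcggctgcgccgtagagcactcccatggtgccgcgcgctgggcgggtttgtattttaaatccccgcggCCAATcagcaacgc
Kif23 (chr9:61946800-61946899, minus strand): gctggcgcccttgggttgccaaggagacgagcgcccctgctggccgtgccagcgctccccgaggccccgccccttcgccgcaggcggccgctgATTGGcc
Cenpm (chr15:82244337-82244436, minus strand): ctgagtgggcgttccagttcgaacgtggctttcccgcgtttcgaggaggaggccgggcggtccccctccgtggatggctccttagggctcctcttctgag
Pttg1 (chr11:43425982-43426081, minus strand): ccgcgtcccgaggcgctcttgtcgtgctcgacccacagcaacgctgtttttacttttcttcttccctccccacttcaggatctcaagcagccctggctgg

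The inner kinetochore marks the centromere and carries the outer plate. Of its members, 5 of 6 rose at 7 days and none at 3 days, where 18% and 0.0421% of all genes did. Cenpa, the histone H3 variant that defines centromeres, stood at 6.35, 5.08, 7.91 and 3.05 eRPKM in the controls, at 8.82, 14.4, 13.1 and 12.4 at 3 days and at 18.4, 22.6 and 11.4 at 7 days. Its groups did not overlap with the controls at either time, and its log2 fold change was 1.10 ± 0.28 (SE) at 3 days (limma adjusted p = 0.123) and 1.57 ± 0.31 at 7 days (adjusted p = 0.00161). Cenpa was the member whose 3-day livers were among the most alike, with liver 1 already above every control.

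Cenpk, a subunit of the constitutive centromere network, was as high in some 3-day livers as at 7 days. It was at 0.935, 1.81, 1.38 and 1.06 eRPKM in the controls, at 2.49, 3.11, 6.21 and 3.87 at 3 days and at 4.14, 4.74 and 4.37 at 7 days. Liver 3 at 3 days was above all 7-day livers, and the change from 3 to 7 days was 0.22 ± 0.29 (adjusted p = 0.581). Cenpi and Cenpn, of the same network, had the largest changes of the group at 7 days, 2.47 ± 0.44 and 2.75 ± 0.47. Cenpi read 0.457, 1.07, 3.77 and 1.92 eRPKM in 3-day livers 1 to 4 over controls of 0.0625 to 0.607, and Cenpn 0.824, 3.48, 4.03 and 0.745 over controls of 0 to 0.698. At 7 days Cenpi read 4.77, 3.56 and 2.66 and Cenpn 6.04, 5.17 and 5.17, so both separated fully from the controls. Cenpm did not pass (2.13 ± 0.77, adjusted p = 0.0434). Its controls were spread between 0, 0.562, 3.59 and 4.25 eRPKM on 0 to 27 reads, and its 7-day livers (9.95, 5.90 and 6.74) were all higher.

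All 8 members of the outer kinetochore, the plate that grips microtubules, rose at 7 days, where 18% of all genes did. Ndc80, the core microtubule-binding subunit, was low in the controls (0.113, 0.240, 0.366 and 0.705 eRPKM, on 1 to 3 reads). It reached 0.331, 1.58, 2.87 and 1.08 at 3 days and 6.42, 6.08 and 2.49 at 7 days, with a log2 fold change of 2.63 ± 0.45 (adjusted p = 0.000681). Only livers 2, 3 and 4 at 3 days left the control range. Cenpf, a large protein of the outer plate, behaved alike with 1.05, 3.20, 6.49 and 3.41 eRPKM at 3 days against 0.349 to 1.59 in the controls and 11.1, 9.89 and 4.75 at 7 days. Cenpe, the kinetochore kinesin that brings chromosomes to the equator, had the largest change of this group at 7 days (2.87 ± 0.58), from 0.0993 to 1.81 eRPKM in the controls to 8.58, 7.89 and 4.63. At 3 days it ranged from 0.233 in liver 1 to 3.64 in liver 3.

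Spc24, which links the Ndc80 complex to the inner plate, had the highest control level of this group. It was already at 12.7, 13.9, 10.8 and 14.4 eRPKM in the controls, and read 21.3, 26.4, 41.0 and 20.1 at 3 days and 29.8, 25.3 and 30.5 at 7 days. Every induced liver was above every control at both times, with log2 fold changes of 0.995 ± 0.206 (adjusted p = 0.0712) and 1.11 ± 0.22 (adjusted p = 0.00187). From 3 to 7 days the difference was 0.12 ± 0.22 (adjusted p = 0.698), and the sign of that difference changed with the scaling.

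The spindle checkpoint, which delays anaphase until chromosomes are attached, held the member with the largest mean difference at 3 days. Cdc20, the activator of the anaphase-promoting complex that the checkpoint restrains (mm9, chromosome 4, 118105506 to 118109957, minus strand, sharing exonic sequence with Elovl1 on the other strand in an unstranded library), had the largest log2 fold change of all members at 3 days, 2.46 ± 0.63 (adjusted p = 0.123). Its controls read 0.678, 0.754, 4.55 and 0.603 eRPKM, with liver 3 far from the rest. At 3 days it read 2.12, 17.6, 20.6 and 7.07, so that only liver 1 overlapped with the controls, and at 7 days 33.9, 23.5 and 16.1 (3.82 ± 0.68, adjusted p = 0.0009).

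Ttk, the kinase that starts checkpoint signalling, came nearest to passing at 3 days. It went from 0.0799, 0.453, 0.905 and 0 eRPKM in the controls, on at most 8 reads, to 1.402, 3.60, 6.68 and 2.28 at 3 days (2.16 ± 0.41, adjusted p = 0.0556) and 13.2, 10.4 and 9.32 at 7 days (3.85 ± 0.45, adjusted p = 4.34e-05). Here even liver 1 at 3 days exceeded every control. Bub1b, the BubR1 inhibitor of Cdc20 (mm9, chromosome 2, 118423947 to 118467328, plus strand), also had all 3-day livers above all controls. It read 0.339, 0.769, 0.879 and 0.211 in the controls, 0.893, 1.97, 3.95 and 1.36 at 3 days (1.19 ± 0.36, adjusted p = 0.189) and 11.01, 8.89 and 6.72 at 7 days. Its change between 3 and 7 days passed the test (1.99 ± 0.39, adjusted p = 0.00198). Bub3, the adaptor of Bub1 and BubR1, was high from the start and did not pass. It read 20.6, 20.2, 16.9 and 17.7 eRPKM in the controls, 14.4, 27.3, 21.6 and 23.5 at 3 days and 29.2, 25.8 and 31.5 at 7 days (0.60 ± 0.20, adjusted p = 0.03), the highest control level of the 53 members.

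The 4 subunits of the chromosomal passenger complex, which corrects faulty attachments and later guides cytokinesis, all rose at 7 days (18% of all genes). Aurkb, its kinase (mm9, chromosome 11, 68859149 to 68865166, plus strand), changed most among all members, by 4.28 ± 0.62 on the log2 scale (adjusted p = 0.000202). It was nearly absent from the controls (0.382, 0.360, 0.824 and 0 eRPKM, on 0 to 4 reads). At 3 days it read 0.372, 5.19, 8.89 and 3.10, with liver 1 at the level of the controls. At 7 days it read 18.5, 16.6 and 13.1, above all 3-day livers. Birc5 (survivin) was at 3.06, 1.86, 1.180 and 2.04 in the controls, at 1.60, 5.87, 10.1 and 3.93 at 3 days and 12.5, 11.03 and 9.63 at 7 days, with the smallest 7-day change of the complex (2.23 ± 0.44). Livers 2, 3 and 4 at 3 days exceeded all controls and liver 1 did not.

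**Figure D3:**
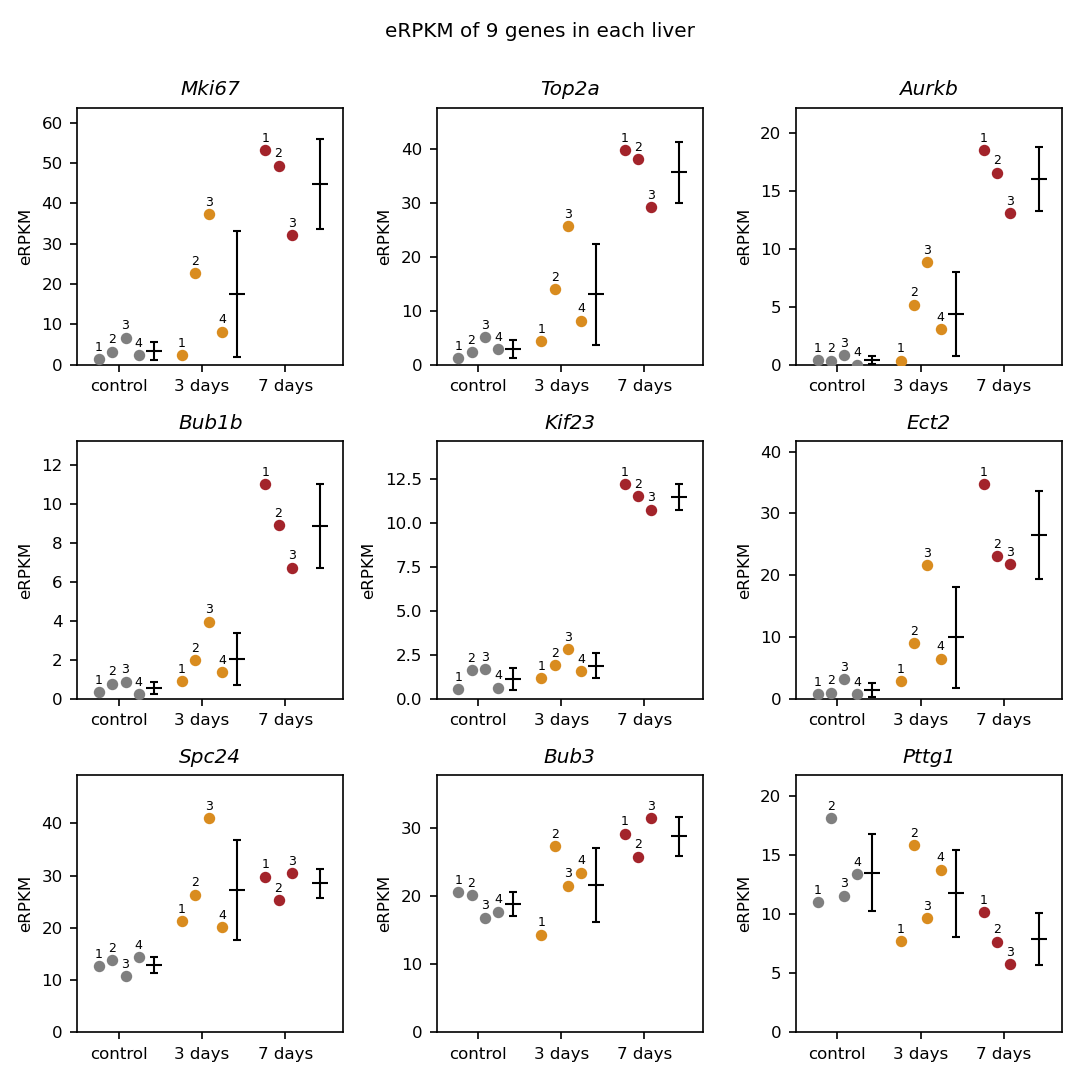
eRPKM (linear axis from 0) of 9 mitotic genes in each liver, with the liver number above each point and the mean ± SD beside each group (n = 4, 4 and 3). Mki67, Top2a, Aurkb, Bub1b and Ect2 spread out at 3 days with liver 3 highest, Kif23 leaves the controls in all livers only at 7 days, Spc24 is above all controls in every 3-day liver, and Pttg1 is lower at 7 days.

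All 12 spindle kinases, kinesins and microtubule proteins rose at 7 days (18% of all genes), and none had passed at 3 days. Between 3 and 7 days 3 of them passed, where 14% of all genes rose. Plk1, the kinase that drives mitotic entry and spindle assembly (mm9, chromosome 7, 129302951 to 129313389, plus strand), overlapped with the controls at 3 days. Controls read 0.844, 1.42, 1.88 and 1.64 eRPKM and 3-day livers 1.23, 2.15, 3.80 and 1.68, a change of 0.43 ± 0.34 (adjusted p = 0.643). At 7 days it read 14.0, 10.9 and 5.58 (2.39 ± 0.37, adjusted p = 0.00031), and the step from 3 days was 1.97 ± 0.37 (adjusted p = 0.0016). Kif11, the kinesin that pushes spindle poles apart, was by contrast higher than every control in all 3-day livers. It read 1.498, 2.09, 2.09 and 1.13 in the controls, 2.95, 5.11, 8.26 and 5.41 at 3 days (1.38 ± 0.31, adjusted p = 0.0833) and 15.5, 16.1 and 8.72 at 7 days.

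Ckap2, a microtubule stabilizer, had the largest change of the spindle group at both times. Its controls scattered between 0, 0.814, 2.63 and 3.28 eRPKM on 0 to 17 reads, and it reached 1.82, 12.3, 18.6 and 5.88 at 3 days and 33.7, 25.1 and 19.3 at 7 days (3.95 ± 0.73, adjusted p = 0.0011). Kif18a, which dampens chromosome movements, had the smallest (1.49 ± 0.28), from 0.395 to 0.656 eRPKM in the controls through 0.815, 1.01, 2.09 and 1.61 to 2.47, 2.90 and 1.78. The other 8 members of this group had log2 fold changes between 1.89 (Kif15) and 3.17 (Tpx2, the activator of Aurora A) at 7 days.

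All 8 cytokinesis genes rose at 7 days (18% of all genes) and none passed at 3 days. Between 3 and 7 days 4 of 8 passed, where 14% of all genes rose. Kif14, in both counts, was tested only because of the 7-day livers. Kif23 (MKLP1, the kinesin of centralspindlin; mm9, chromosome 9, 61765087 to 61794606, minus strand) is described in full because of its values. It stood at 0.544, 1.61, 1.68 and 0.616 eRPKM in the controls and at 1.16, 1.91, 2.83 and 1.57 at 3 days, and then at 12.2, 11.5 and 10.74 at 7 days. Livers 1 and 4 at 3 days lay inside the control range, and the highest 3-day liver was 3.80 times below the lowest 7-day liver, the widest such gap of the 53 members. The change was 0.59 ± 0.31 at 3 days (adjusted p = 0.473) and 2.97 ± 0.33 at 7 days (adjusted p = 3.21e-05). The step between the times was 2.38 ± 0.33 (adjusted p = 0.000185). It passed between 3 and 7 days under all 27 other settings with the same thresholds, with log2 fold changes of 1.85 to 2.65.

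Ect2, the exchange factor that activates RhoA at the division plane (mm9, chromosome 3, 26996144 to 27052800, minus strand), differed more at 3 days. It read 0.756, 0.948, 3.20 and 0.725 eRPKM in the controls, 2.81, 8.93, 21.6 and 6.46 at 3 days (2.30 ± 0.50, adjusted p = 0.0833) and 34.7, 23.1 and 21.8 at 7 days (3.96 ± 0.54, adjusted p = 0.000135). Kif20a (MKLP2), which moves the passenger complex to the midzone, read 0.839, 9.38, 11.1 and 4.12 at 3 days over controls of 0.397 to 2.58, and 14.2, 12.9 and 7.16 at 7 days. Both genes had liver 1 within the range of the controls and liver 3 close to the 7-day levels.

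Prc1, the bundler of midzone microtubules, and Anln (anillin), the scaffold of the contractile ring, rose at 7 days by 2.77 ± 0.45 and 2.96 ± 0.37. Prc1 read 1.04, 4.09, 6.05 and 1.61 at 3 days over controls of 0.743 to 1.67, and 12.9, 11.1 and 7.92 at 7 days. Anln read 1.21, 3.31, 5.06 and 2.87 over controls of 0.572 to 1.19, and 11.5, 10.4 and 6.403 at 7 days. Only for Anln did all 3-day livers exceed all controls, in liver 1 by a narrow margin. Kif14, a midbody kinesin, was the lowest of the group (0.161, 0.326, 1.05 and 0.175 at 3 days, 2.59, 1.90 and 1.32 at 7 days) and its controls (0.0551, 0.312, 0.268 and 0) covered 3-day livers 1 and 4.

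Of the 9 genes for chromosome structure and separation, 8 rose at 7 days, beside 18% of all genes. Mki67, the proliferation marker that coats mitotic chromosomes (mm9, chromosome 7, 142881471 to 142908062, minus strand), averaged 3.43 ± 2.33 eRPKM (SD, n = 4) in the controls, 17.6 ± 15.6 (n = 4) at 3 days and 44.8 ± 11.2 (n = 3) at 7 days. Single values were 1.33, 3.29, 6.72 and 2.39, then 2.39, 22.7, 37.2 and 8.24, then 53.1, 49.3 and 32.1. Liver 1 at 3 days lay inside the control range, and liver 3 exceeded the lowest 7-day liver. Its change of 1.81 ± 0.65 at 3 days did not pass (adjusted p = 0.282) and that of 3.67 ± 0.71 at 7 days did (adjusted p = 0.00143). Top2a, the topoisomerase that untangles sister chromatids, read 1.25, 2.38, 5.14 and 2.93, then 4.38, 14.0, 25.7 and 8.19, then 39.7, 38.1 and 29.2, with the same order of livers and a change of 3.51 ± 0.49 at 7 days.

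The condensin subunits Smc2, Smc4, Ncapg, Ncapd2 and Ncaph, which compact chromosomes, all rose at 7 days, by 1.63 (Ncapg) to 2.87 (Ncaph) on the log2 scale. Ncapd2 read 1.21, 3.55, 11.4 and 1.46 eRPKM at 3 days against controls of 1.03 to 2.68, and 15.6, 17.0 and 13.4 at 7 days. Livers 1 and 4 were inside the control range and liver 3 was below the 7-day livers. Espl1 (separase), the protease that cuts cohesin, rose by 2.55 ± 0.41, though it was tested only because of the 7-day livers.

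Pttg1 (securin, the inhibitor of separase; mm9, chromosome 11, 43233752 to 43239753, minus strand) went the other way. It read 11.03, 18.2, 11.6 and 13.4 eRPKM in the controls, 7.75, 15.8, 9.71 and 13.8 at 3 days and 10.2, 7.70 and 5.78 at 7 days, on at least 30 reads in every liver. All 3 livers at 7 days were below all controls, against 13.3% of all genes, but the change of -0.75 ± 0.27 did not pass (limma adjusted p = 0.0461). Its mean control level, 13.5 ± 3.24 eRPKM (SD, n = 4), was exceeded among the members by that of Bub3 alone, while Espl1, its target, was under 0.5 eRPKM in every control.

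**Figure D4:**
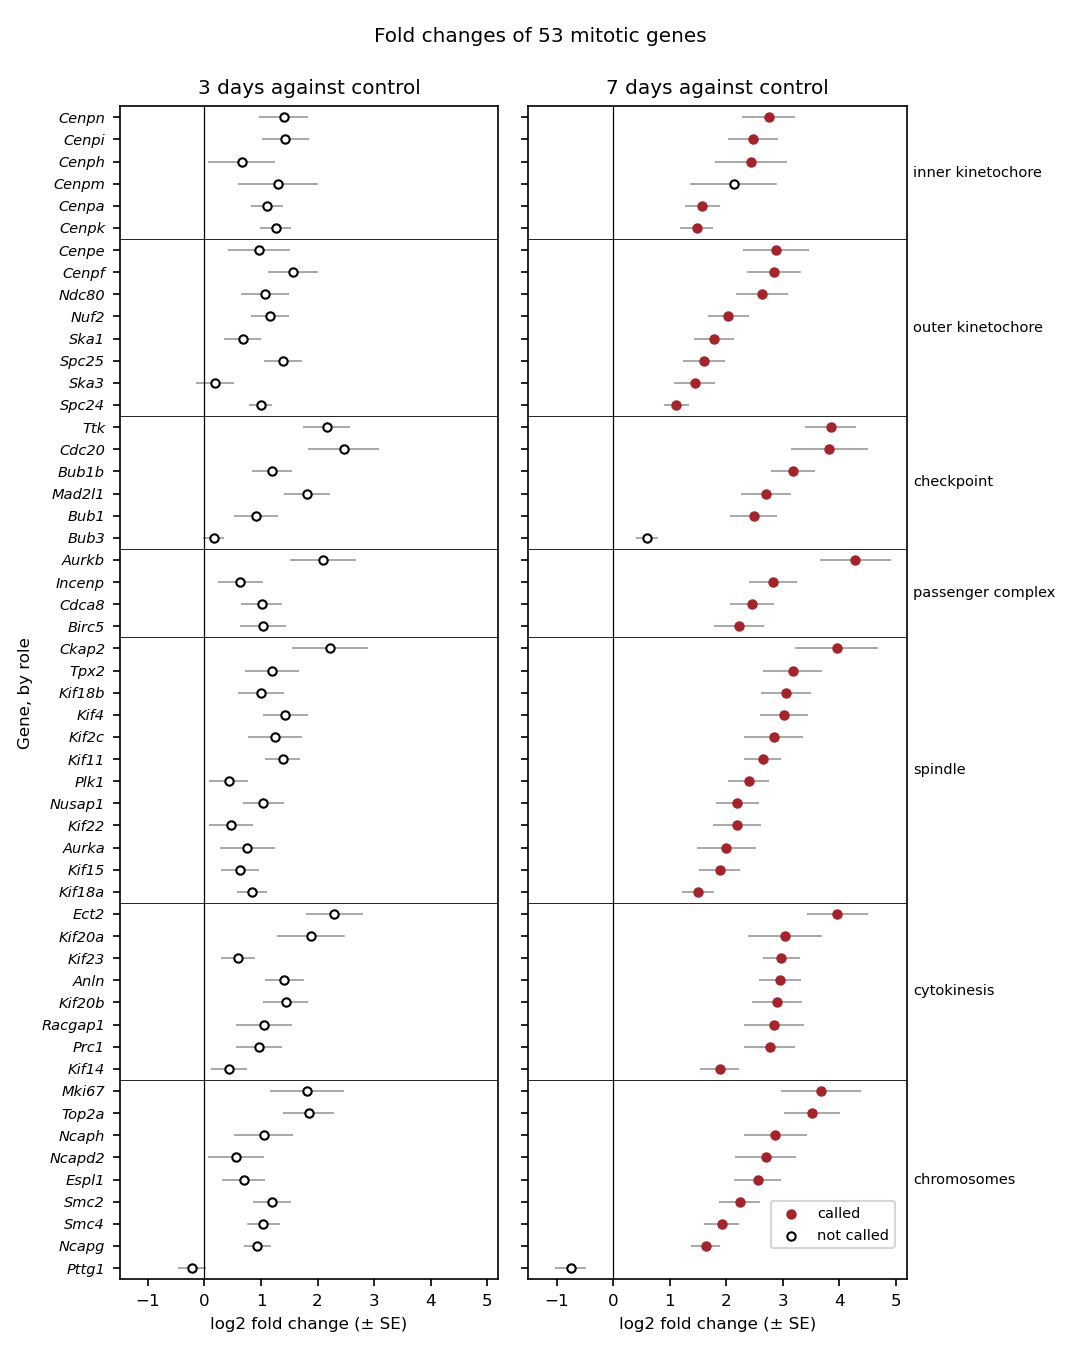
Log2 fold change ± SE of the 53 mitotic genes, by role, at 3 days (left) and 7 days (right) against the controls, on log2(eRPKM + 0.5), with filled points for genes that passed the test. No gene is filled at 3 days, and 50 are filled at 7 days, all to the right of 0, with Cenpm, Bub3 and Pttg1 open.

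Between 3 and 7 days, 11 of the 53 members rose, against 14% of all tested genes, and none fell, against 5.31%. They were Bub1b, Incenp, Plk1, Kif18b, Kif22, Kif14, Kif23, Prc1, Anln, Ncapd2 and Espl1, with log2 fold changes of 1.45 to 2.38, and the median over all members was 1.45. Kif14 and Espl1 are the 2 members that reached the level for testing only through the 7-day livers, so their higher values there were in part a condition of being tested. By role this was 0 of 6 inner and 0 of 8 outer kinetochore members, 1 of 6 checkpoint, 1 of 4 passenger, 3 of 12 spindle, 4 of 8 cytokinesis and 2 of 9 chromosome members. The difference between roles was not tested. Single livers decided this count. It was 33 when 3-day liver 3 was left out, beside 2618 of 14202 genes. Without 7-day liver 2 it was 1, Kif23, beside 1033 of 13868 genes.

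Set against the 7-day livers one by one, liver 3 at 3 days was above all of them for 2 members (Spc24 and Cenpk), within their range for 21 and below for 30. Over all genes, 3603 of 14244 were higher in this liver than in every 7-day liver. Liver 1 was at or above the lowest 7-day liver for 1 member, liver 2 for 7, liver 3 for 23 and liver 4 for 3, where the shares of all genes were 44.3%, 49.4%, 53% and 47.7%. After Kif23, the widest gaps between liver 3 and the lowest 7-day liver were those of Incenp, the passenger scaffold (5.96 against 12.7 eRPKM), and Ska1 (0.889 against 1.57).

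Livers within the other groups differed too. Control liver 3 was the highest control for 39 of 53 members (18% of all genes), with Mki67 at 6.72 and Cdc20 at 4.55 eRPKM. The lowest 7-day liver was liver 3 for 47 members (32.9%). Both livers were picked from the values of these same members. When control liver 3 was left out, 22 instead of 12 members exceeded every control in 3-day liver 1, and without control liver 4 the median of that liver moved from 0.11 to -0.0265.

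Other genes of mitosis shared the pattern. Of 62 further kinetochore, spindle and cohesion genes, 39 rose at 7 days and 1, Ska2, at 3 days. Over all genes, 18% and 0.0421% did. Ska2, a partner of Ska1 and Ska3 at the outer kinetochore, read 2.07, 2.34, 2.68 and 1.29 eRPKM in the controls, 6.77, 9.42, 10.1 and 9.28 at 3 days (1.87 ± 0.23, limma adjusted p = 0.00797) and 9.69, 13.01 and 8.74 at 7 days. Its 4 livers at 3 days lay close together, unlike those of Ska1 (0.136, 1.30, 0.889 and 0.592) and Ska3 (0.786, 2.19, 3.87 and 1.71).

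Of 7 macrophage and Kupffer cell genes, 5 rose at 7 days, beside 18% of all genes, and their summed level lay between 93.8 and 193 eRPKM in the controls, between 112 and 213 after 3 days and between 490 and 517 after 7 days, with none at 0. Over 3-day livers 1 to 4 their median difference from the controls was -0.38, -0.22, -0.03 and 0.56. Of 8 hepatocyte genes 2 fell at 7 days, beside 5.77% of all genes, and their sum spanned 1621 to 4339 eRPKM in the controls, then 1955 to 2339 after 3 days and 1310.3 to 1483 after 7 days. Alb (albumin) was highest in the shallowest library (918 eRPKM) and lowest in the deepest (234), so its level moved with depth, and the cause was not tested. Further, 1 of 6 T cell, 1 of 2 tested neutrophil, 2 of 6 endothelial and 1 of 6 tested cholangiocyte genes rose at 7 days and no B cell, erythroid or stellate cell gene did, while 1 of 3 tested erythroid genes fell. Over all genes the shares were 18% higher and 5.77% lower. The part of these cells in the mitotic RNA was not tested.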

How the data were processed

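RNA from 11 livers was sequenced after TruSeq v2 library preparation, which does not mark strand. The submitters' processing notes list TopHat2 2.0.8, SAMtools, featureCounts 1.4.5-p1 and DESeq2 with the mm9 build, and the treatment of duplicate reads is not given in the sources used here. The deposited values are eRPKM, an RPKM per gene and liver that the authors computed from reads on exons. The 3 columns of the authors' DESeq2 comparison (mean, fold change and adjusted p-value) were not used. Values of low genes are whole multiples of 1 read, from which depth was recovered (100% of 177553 values above 0 within 0.05 of a whole read). Counts of reads per liver cover counting error only.

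Groups came from the sample titles. log2(eRPKM + 0.5) was fitted in limma 3.58.1 (R 4.3.3, trended eBayes, all 3 groups in 1 fit) over the 14244 genes that reached 0.5 eRPKM in 3 or more livers. Calls needed an adjusted p (Benjamini-Hochberg, over all genes tested) under 0.01 together with a log2 fold change past 0.5 in either direction, as in the study's methods. Fold changes are on this log2 scale and understate the change of low genes; 14 members had 10 or fewer reads in every control. Single genes were also compared by exact two-sided permutation tests. The script was tested on simulated data. The members, role groups and lists were chosen with earlier results of these data known. Genes named with values in every liver were a fixed list of 14, the largest and smallest change at 7 days and the largest at 3 days in each of 7 roles, and those lower or not called at 7 days. Kif23, Ncapd2, Ska1, Ska3, Ska2 and Spc25 were added after their values were seen. Gene positions are from GENCODE M1 (mm9) and promoters from RefSeq (GRCm38.p6). Of the members, 8 share exonic sequence with another gene, so their reads cannot be told apart where they overlap. They are Cdc20, Cdca8, Nusap1, Kif18a, Kif4, Kif20a, Top2a and Ncapg. No position was found for Ska3, so its overlap was not checked. Alternatives covered the pseudocount, filter, scaling, samples, covariates, model and threshold, and leaving out each liver.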

Additional observations from a re-analysis of the deposited data

Results flagged for a closer look

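Control liver 3 stood far from the other 3 controls for Cdc20 (4.55 eRPKM, with a gap of 0.962 of the range of the group) and for Ect2 (3.20 eRPKM, 0.910). These were 2 of 60 sets of 4 values examined, and chance gives about 1 in 20.

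Levels differed between the 7-day and the 3-day livers, by the limma test of that difference, for 11 members. All 11 were higher at 7 days, where 14% of all tested genes rose. The 7-day livers were all female, their libraries were deeper than every 3-day library, and no control was fed doxycycline for 3 days. The part of time on YAP, sex and depth in the difference was not tested. Kif14 and Espl1 reached the level for testing only through the 7-day livers. The difference on the log2 scale was 1.99 for Bub1b, 2.20 for Incenp, 1.97 for Plk1, 2.06 for Kif18b, 1.72 for Kif22, 1.45 for Kif14, 2.38 for Kif23, 1.80 for Prc1, 1.54 for Anln, 2.14 for Ncapd2 and 1.86 for Espl1. Of the 27 other settings with the same thresholds, Kif23 passed in 27, Incenp in 23, Bub1b and Plk1 in 22 each, Kif18b in 18 and Espl1 in 14, while Kif22, Prc1, Anln and Ncapd2 passed in 7 to 10, and Kif14 in 11 of the 26 in which it was tested.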

How the results depend on the processing

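At 3 days no member was called under any alternative except without 3-day liver 1, when Aurkb and Mad2l1 were (range 0 to 2 when each liver was left out). At 7 days the count of 50 ranged from 41 to 51 when each liver was left out, beside 1513 to 2768 over all genes. It fell to 22 with log2 depth as a covariate, where all genes called higher fell from 2561 to 1099. Without control livers 1 and 2 and 7-day liver 2 the count of members was 5, beside 941 of 13542 genes. That alternative was chosen after seeing the data and leaves fewer livers. Size factors moved the median log2 fold change of all genes at 7 days from 0.26 to 0.03 and the share of higher calls from 75.7% to 60.9%, and quantile normalization to -0.08 and 50.5%, with 46 and 44 members called higher. Of all 14244 genes, 1951 and 1857 were then called higher.

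The count of 11 members between 7 and 3 days was the least stable. It was 18 with a pseudocount of 1, 5 with 0.1, 7 without the filter, 6 with size factors, 3 with quantile normalization, 4 with log2 Xist as a covariate, 2 with log2 depth, 1 in female livers, 26 by limma-voom on recovered reads, 4 with only the 2 groups compared, 34 with the threshold on the adjusted p at 0.05 and no limit on fold change, 1 without the 3 libraries named above and 1 to 33 when each liver was left out. All genes called higher in this comparison numbered 1997 of 14244 in the main fit and 2723 by limma-voom. They were 2113 with a pseudocount of 1, 1730 with 0.1 and 1744 of 19965 without the filter. Size factors gave 1516, quantile normalization 1436 and log2 Xist 1326. The 2 groups alone gave 1686 of 13677, and the threshold on the adjusted p at 0.05 gave 3621. With log2 depth all genes called higher numbered 1091, and in female livers 1046 of 13844. Without the 3 libraries there were 788 of 13542, and 983 to 2618 when each liver was left out. The share of members was below that of all genes with a pseudocount of 0.1, quantile normalization, log2 Xist and log2 depth. It was also below in female livers, with the 2 groups alone and without the 3 libraries. The replicate block gave 5 members between 7 and 3 days, 46 at 7 days and 0 at 3 days. Of all 14244 genes it called 1429, 2032 and 3 higher. Same-numbered livers correlated in their deviations by -0.22 to 0.27. Livers with different numbers were not set beside them, so whether the numbers pair the livers is not settled.

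Among the 53 members, directions reversed in the 7 against 3 day comparison for 4, namely Spc25 (-0.0161 with size factors, -0.184 with quantile normalization, -0.0240 with log2 Xist, -0.204 with log2 depth, -0.0373 in female livers), Cenpk (-0.47 with quantile normalization, -0.0393 with log2 Xist, -0.14 in female livers), Cenpm (-0.0502 with log2 depth) and Spc24 (-0.12 with size factors, -2.92e-05 with quantile normalization, -0.0172 in female livers, and -0.00329 to 0.333 when each liver was left out, the lowest without 3-day liver 4). At 3 days against control, they reversed without 3-day liver 3 for Ncapd2 (-0.0244) and Ska3 (-0.104), and at 7 days against control for no member under the settings run. The median of 3-day liver 1 was -0.0265 without control liver 4 (-0.0265 to 0.30 over the controls left out), and its members above every control numbered 12 to 22. For livers 2, 3 and 4 the medians were 1.16 to 1.44, 1.996 to 2.29 and 0.72 to 0.97, and the counts 52 to 53, 52 and 39 to 46. The causes were not tested. With 14 members at 10 or fewer reads in every control, depth limits the precision of control levels and so of fold changes.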

Other observations

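DNA replication genes, a list of 35 with the Mcm helicase, Pcna and ribonucleotide reductase, tracked the mitotic genes at 3 days. At 7 days the order of the livers differed between the lists. Their median difference from the control mean was 0.01, 0.93, 1.93 and 0.53 in 3-day livers 1 to 4, the same order of livers, and 2.26, 1.87 and 2.29 in the 7-day livers. Of these genes, 29 rose at 7 days, none at 3 days and 3 between the times. Over all genes, 18%, 0.0421% and 14% did. In 3-day liver 3, 23 of 35 were at or above the lowest 7-day liver, beside 23 of 53 mitotic genes and 53% of all genes. Within 7 days, liver 3 was the lowest liver for 5 of 35 replication genes and for 47 of 53 mitotic genes, where 32.9% of all genes had their lowest 7-day value there. This liver was picked from the values of the mitotic members, so their count is in part set by that choice. The contrast rests on 1 liver. The difference between the lists was not tested.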
